A study of Mus musculus with 25 samples.

Results

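H3K4 methylation writers, erasers and readers are the proteins that place methyl groups on lysine 4 of histone H3, remove them, or bind them. The set described here held 40 genes, chosen by name from these roles, and comprised 11 writer enzymes, 8 subunits of writer complexes, 7 erasers and 14 readers. All 40 were located by symbol among 26180 genes with a curated RefSeq transcript on the mouse assembly GRCm38, of which 21000 were protein-coding. The study asked how the histone reader Spin1 acts in skeletal muscle, and ChIP-seq was used to map where Spin1 and H3K4me3 lie in primary myoblasts. Both libraries came from the same kind of cells, cultured muscle precursors from the limbs of 10-day-old C57BL/6 mice (C57BL/6 N in the study's methods) without any gene deletion or treatment, and the cells were enriched by letting fibroblasts attach first. A Spin1 antibody gave 1 library and an antibody against H3K4me3 gave 1 library, so that no comparison has a replicate and no test was run. The values are the positions of peaks, their widths in base pairs (bp) and their MACS scores, which grow with the evidence for a peak over input DNA (10 × −log10 of the p-value). Scores pile up at 3100, where peaks have no order, and scores were compared only within 1 library. The read depth is unknown. The antibody field of the H3K4me3 sample reads H3K4me, without the number of methyl groups, while its title and the study's methods name H3K4me3, which is used here.

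H3K4 methylation marks the regulatory start of genes. KMT2 and SET1 enzymes write it within complexes that share the core subunits Wdr5, Rbbp5, Ash2l and Dpy30, and trimethylation is typical of promoters rich in CpG dinucleotides. Enzymes of the KDM1 and KDM5 families erase it, and readers bind the methylated tail through PHD fingers, chromodomains or, in Spindlin proteins such as Spin1, Tudor-like domains.

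Each of the 40 genes had a Spin1 peak and an H3K4me3 peak at a promoter, defined as the transcription start site (TSS) of any curated transcript ±1 kb. The share was 100% with a 95% Wilson interval from 91.2 to 100%, which covers counting error only. It treats the genes as random draws, although they were chosen by name. Among all genes, 50.7% had a Spin1 promoter peak, 61.9% had H3K4me3 and 50.6% had both. Among protein-coding genes the shares were 56.7% for Spin1, 68% for H3K4me3 and 56.7% for both. Spin1, the gene of the precipitated protein itself, had a Spin1 peak of 4040 bp at chr13:51099641-51103680 and an H3K4me3 peak of 4447 bp at chr13:51099291-51103737, both at a score of 3100.

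Occupancy was not found at every start of these genes. The 40 genes had 59 curated TSSs, and 8 genes had more than 1. Of the starts, 56 lay within 1 kb of both peaks and 3 lay within 1 kb of neither. The 3 starts without a peak were alternative starts of Spin1, Dpy30, the core subunit that binds Ash2l, and Ash2l, a core subunit of KMT2 and SET1 complexes. The Spin1 start without a peak lay 31917 bp downstream of the occupied start. Those of Dpy30 and Ash2l lay 7511 bp and 6907 bp upstream of the occupied starts.

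The promoters differed in sequence as well as in occupancy. The sequences below are the 250 bases before the TSS on the strand of the gene, from the GRCm38 reference, with every CpG dinucleotide in capitals. For Spin1, Dpy30 and Ash2l the occupied start is shown before the unoccupied one, to set the 2 promoters of 1 gene side by side.

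Spin1, occupied start, chr13:51100630-51100879, plus strand: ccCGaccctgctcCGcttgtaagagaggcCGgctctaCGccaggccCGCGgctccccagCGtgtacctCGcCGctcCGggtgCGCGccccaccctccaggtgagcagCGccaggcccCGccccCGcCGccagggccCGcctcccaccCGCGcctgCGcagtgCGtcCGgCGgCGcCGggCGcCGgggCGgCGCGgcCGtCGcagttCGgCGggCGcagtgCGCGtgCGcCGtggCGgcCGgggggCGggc
Spin1, unoccupied start, chr13:51132547-51132796, plus strand: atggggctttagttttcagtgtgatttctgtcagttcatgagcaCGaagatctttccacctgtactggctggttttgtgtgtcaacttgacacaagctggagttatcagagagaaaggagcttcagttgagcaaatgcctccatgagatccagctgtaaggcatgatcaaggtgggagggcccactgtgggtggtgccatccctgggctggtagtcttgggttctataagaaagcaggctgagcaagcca
Dpy30, occupied start, chr17:74316434-74316683, minus strand: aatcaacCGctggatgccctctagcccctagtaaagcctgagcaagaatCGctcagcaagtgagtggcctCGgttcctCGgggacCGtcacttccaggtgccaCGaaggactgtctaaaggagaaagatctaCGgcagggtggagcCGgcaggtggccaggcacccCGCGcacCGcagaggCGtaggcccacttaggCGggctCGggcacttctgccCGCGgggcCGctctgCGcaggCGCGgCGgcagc
Dpy30, unoccupied start, chr17:74323945-74324194, minus strand: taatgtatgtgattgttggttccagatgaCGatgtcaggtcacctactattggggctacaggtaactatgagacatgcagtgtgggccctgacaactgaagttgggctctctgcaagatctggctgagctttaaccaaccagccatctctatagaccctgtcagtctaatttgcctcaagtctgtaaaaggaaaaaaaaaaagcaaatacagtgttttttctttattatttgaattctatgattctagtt
Ash2l, occupied start, chr8:25840788-25841037, minus strand: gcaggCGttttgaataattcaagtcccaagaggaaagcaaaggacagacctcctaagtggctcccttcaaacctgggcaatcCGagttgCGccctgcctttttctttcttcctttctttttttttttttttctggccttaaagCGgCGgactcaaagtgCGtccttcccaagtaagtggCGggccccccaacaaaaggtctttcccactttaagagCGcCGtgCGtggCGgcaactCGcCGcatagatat
Ash2l, unoccupied start, chr8:25847695-25847944, minus strand: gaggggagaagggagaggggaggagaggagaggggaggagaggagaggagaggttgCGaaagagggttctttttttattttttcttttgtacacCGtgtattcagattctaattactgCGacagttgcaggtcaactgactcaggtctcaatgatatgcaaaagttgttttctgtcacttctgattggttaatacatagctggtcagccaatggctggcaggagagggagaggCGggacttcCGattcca

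The occupied Spin1 promoter held 42 CpGs in 250 bases and the unoccupied one held 1. Dpy30 had 21 CpGs at the occupied start and 1 at the unoccupied start. In Ash2l the contrast was smaller, with 13 and 5 CpGs. The unoccupied Spin1 promoter consisted of marked repeats in 198 of its 250 bases, against 0 at the occupied one.

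3 further promoters are shown for the ends of the range. Setd1b, a SET1 methyltransferase, had the widest peaks of the 40 genes, Spin4, an X-linked Spindlin family member, had the narrowest Spin1 peak, and Smyd1, a muscle SMYD family methyltransferase, had the lowest CpG content among the occupied starts.

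Setd1b, occupied start, chr5:123141943-123142192, plus strand: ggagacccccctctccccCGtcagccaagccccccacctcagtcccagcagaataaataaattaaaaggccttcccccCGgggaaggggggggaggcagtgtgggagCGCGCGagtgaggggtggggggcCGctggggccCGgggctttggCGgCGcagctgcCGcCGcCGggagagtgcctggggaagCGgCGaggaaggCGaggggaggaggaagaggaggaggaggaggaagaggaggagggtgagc
Spin4, occupied start, chrX:95026683-95026932, minus strand: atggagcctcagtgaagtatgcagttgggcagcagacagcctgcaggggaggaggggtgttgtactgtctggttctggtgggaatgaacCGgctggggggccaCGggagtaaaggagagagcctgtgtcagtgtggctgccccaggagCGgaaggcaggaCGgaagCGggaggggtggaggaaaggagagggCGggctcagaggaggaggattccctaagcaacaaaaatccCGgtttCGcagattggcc
Smyd1, occupied start, chr6:71262282-71262531, minus strand: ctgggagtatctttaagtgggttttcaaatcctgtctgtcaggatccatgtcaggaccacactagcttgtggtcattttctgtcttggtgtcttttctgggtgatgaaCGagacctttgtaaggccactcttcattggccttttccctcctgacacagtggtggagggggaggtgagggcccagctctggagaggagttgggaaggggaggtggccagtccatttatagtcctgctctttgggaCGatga

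The Setd1b promoter held 15 CpGs, the Spin4 promoter 8 and the Smyd1 promoter 2. Over a window of 300 bases, 250 before the TSS and 50 after, the ratio of observed to expected CpGs had a median of 0.906 over the single RefSeq Select or longest transcript of the 40 genes, against 0.608 for all protein-coding genes. Protein-coding genes with a Spin1 promoter peak had a median of 0.797 and those without had 0.226. Smyd1 stood at 0.156, below the median of the genes without Spin1, and still had a Spin1 peak of 2809 bp with a score of 2005 and an H3K4me3 peak of 5346 bp. The next lowest of the occupied starts was Spin4 at 0.480. The 3 starts without a peak stood at 0.0810 for Dpy30, 0.107 for Spin1 and 0.425 for Ash2l.

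**Figure D1:**
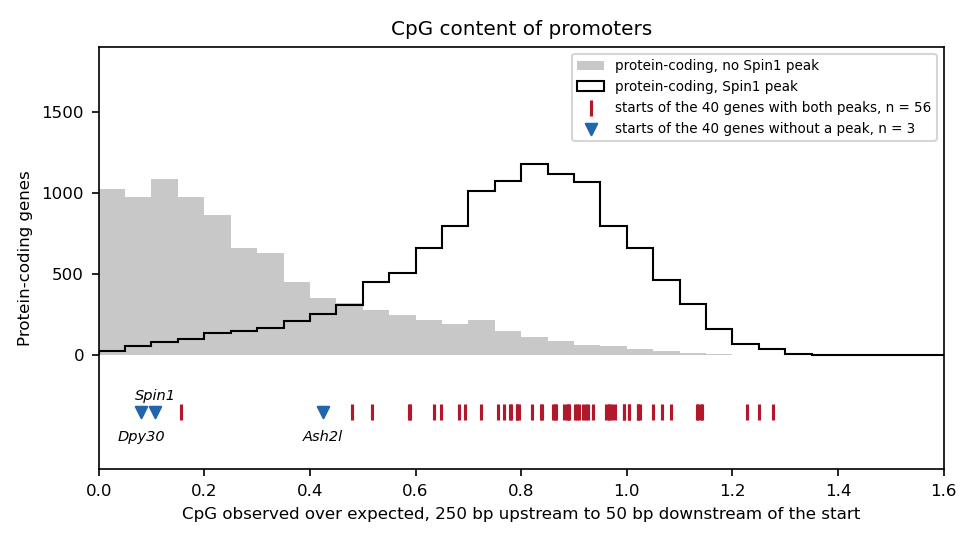
Ratio of observed to expected CpG dinucleotides (x axis) in the 300 bases around the start, with the number of protein-coding genes per bin of the ratio (y axis, histograms) and the single starts of the 40 genes as marks below 0. The 56 occupied starts lie mostly in the upper mode, with Smyd1 at 0.156 as the exception, and the 3 starts without a peak lie at 0.425 or below.

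Short motifs were searched in the same 300-base windows on both strands. The GC box GGGCGG occurred in 29 of 40 promoters, or 72.5%, against 49.2% of all protein-coding promoters and 69.6% of those with a Spin1 peak. It was found in 14 of 14 readers, 7 of 11 writer enzymes, 4 of 8 subunits and 4 of 7 erasers. The E-box CAGCTG was present in 6 of 40, or 15%, against 15.2% of protein-coding promoters and 14.3% of those with Spin1. CCGGAAG also occurred in 6 of 40, or 15%, between the 12.2% of all protein-coding promoters and the 19.4% of those with Spin1. CCAAT occurred in 10 of 40, or 25%, against 38.7% and 38.5%. TATAAA was present in 1 of 40, or 2.50%, against 12.8% and 6.42%, and that gene was Smyd1, where it lay on the opposite strand with its outermost base 28 bp before the TSS. GGGCGG and CCGGAAG contain a CpG, so that their frequency moves with the CpG content. A match of letters is not a bound site.

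The 40 genes had a higher median peak width than protein-coding genes in general. The median Spin1 promoter peak measured 2882 bp, with a 95% binomial interval of the median from 2466 to 3454 bp, against 2289 bp for 11911 protein-coding genes. The median H3K4me3 peak measured 4445.5 bp, with an interval from 3856 to 4942 bp, against 3238 bp for 14281 protein-coding genes. These 14281 genes had H3K4me3 with or without Spin1, whereas all 40 genes had both. The median H3K4me3 width of the 11903 protein-coding genes with both peaks was not computed. Of the 40 genes, 29 exceeded the protein-coding median for Spin1 and 35 for H3K4me3. The intervals concern the median of genes treated as random draws, not the spread among genes or cultures. Because the 40 genes were chosen by name, the intervals are descriptive and give no test against other genes.

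Writer enzymes had the highest median width in both libraries. Their median Spin1 width was 3284 bp (n = 11, range 1894 to 10103 bp), followed by readers with 2915.5 bp (n = 14, 1307 to 4877 bp), erasers with 2802 bp (n = 7, 1987 to 4774 bp) and writer subunits with 2461 bp (n = 8, 1800 to 3736 bp). For H3K4me3 the medians were 4942 bp in writer enzymes, 4539.5 bp in readers, 3890 bp in writer subunits and 3595 bp in erasers. The ranges of all 4 classes overlapped in both libraries, so no class stood apart from its neighbour in this order. The intervals of the medians overlapped too, but for writer subunits and erasers the interval was the full range and adds nothing. The order also rested on single genes. Kmt2e was placed among the writer enzymes by its gene family, and enzyme activity was not examined. With Kmt2e counted as a reader, as its PHD finger for H3K4me3 allows, readers came first for Spin1 with 3454 bp against 3129.5 bp in writer enzymes. The H3K4me3 medians were then 4693 bp in writer enzymes and 4632 bp in readers. With Cxxc1, a CXXC and PHD finger subunit of the SET1 complex, counted as a reader, the readers came last for Spin1 with 2377 bp.

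**Figure D2:**
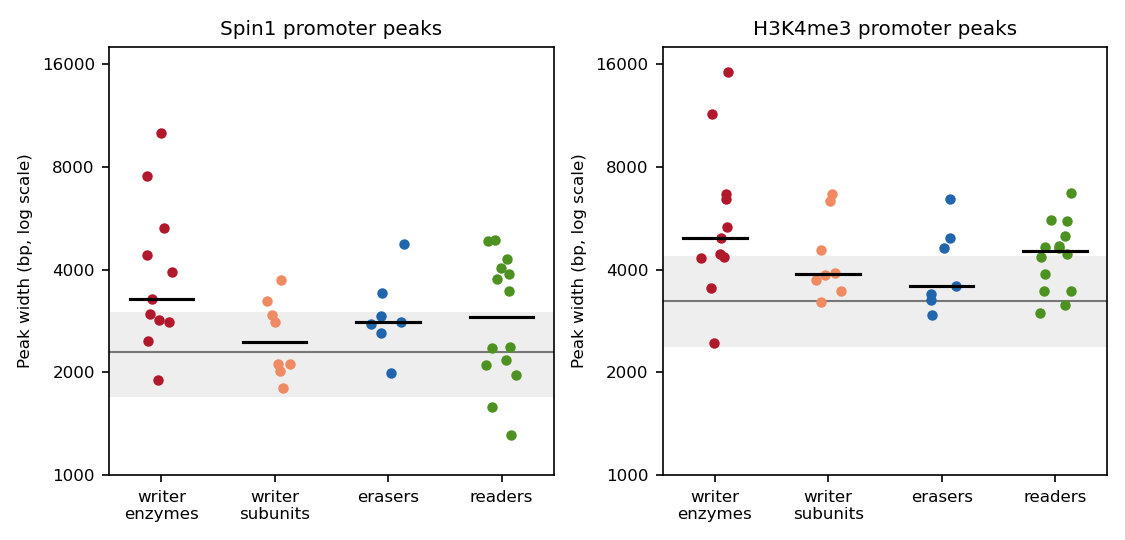
Width of the Spin1 (left) and H3K4me3 (right) promoter peak of each gene by class, in bp on a log scale. Points are genes, black bars class medians, the gray line is the median of protein-coding genes (2289 and 3238 bp) and the band their middle 50%. The 4 classes overlap in both panels.

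Among the writer enzymes, the widest peaks were those of KMT2 and SET1 family genes. Setd1b had a Spin1 peak of 10103 bp at chr5:123134030-123144132 and an H3K4me3 peak of 15225 bp at chr5:123131680-123146904. Both extended upstream, by 8163 bp for Spin1 and 10513 bp for H3K4me3. The H3K4me3 peak reached the curated start of Rhof, a gene on the opposite strand, and predicted Rhof starts lay within the Spin1 peak from 385 bp upstream of the Setd1b start on. A separate Spin1 peak of 1346 bp with a score of 288.64 lay 266 bp beyond the end of the large one, at the curated Rhof start.

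Kmt2e, an MLL family protein whose PHD finger binds H3K4me3, had the next widest peaks, with 7513 bp for Spin1 at chr5:23429624-23437136 and 11452 bp for H3K4me3. They too extended upstream, over the starts of the lncRNA gene 5031425E22Rik, the nearest of which lay 111 bp from the Kmt2e start on the opposite strand. Kmt2d, which monomethylates H3K4 at enhancers, had 5289 bp and 6650 bp. The Spin1 widths of Setd1b, Kmt2e and Kmt2d exceeded those of 99.9%, 99.7% and 98.0% of occupied protein-coding genes.

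The remaining enzymes of these families were closer to the other genes. Kmt2a, the MLL1 methyltransferase, had a Spin1 peak of 4419 bp and its paralog Kmt2b had 3284 bp. Kmt2c, the partner enzyme of Kmt2d at enhancers, had 3935 bp, and Setd1a, the paralog of Setd1b, had 2845 bp. The H3K4me3 peak of Setd1a measured 4347 bp, against the 15225 bp of Setd1b. All 7 KMT2 and SET1 genes were scored at 3100 in both libraries.

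The other methyltransferases had Spin1 peaks between 1894 and 2975 bp. Setd7, which monomethylates H3K4, had a Spin1 peak of 2975 bp, Smyd2 had 2466 bp and Smyd3 had 1894 bp. Smyd3 had the narrowest H3K4me3 peak of all 40 genes with 2432 bp and the second lowest Spin1 score with 826.76. In Smyd1 the Spin1 peak covered 52.5% of the width of the H3K4me3 peak, the lowest value among the writer enzymes, and reached 452 bp upstream and 2356 bp downstream of the TSS.

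Within the writer complexes, the core subunits differed among themselves. Wdr5 and Ash2l had Spin1 peaks of 2941 bp and 2805 bp, both scored at 3100. Rbbp5 had 2117 bp with a score of 1860.46, and Dpy30 had the narrowest of the class with 1800 bp and 2806.41. The H3K4me3 peaks of these 4 genes lay between 3465 and 4585 bp. Rbbp5 had the widest of them but the lowest Spin1 to H3K4me3 width, 46.2%.

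Of the subunits that join particular complexes, Hcfc1, the X-linked gene of host cell factor, had the widest Spin1 peak with 3736 bp and an H3K4me3 peak of 6688 bp. Wdr82, a SET1 complex subunit, had 3245 bp and 6363 bp. Menin, the product of Men1 and a subunit of the MLL1 and MLL2 complexes, had 2018 bp with a score of 2855.09 and 3856 bp. Cxxc1 had 2110 bp with a score of 2076.05 and the narrowest H3K4me3 peak of the class with 3213 bp. The class had a median Spin1 to H3K4me3 width of 54.1%, against 68.5% in writer enzymes, 74.2% in erasers and 67.4% in readers, with overlapping ranges.

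Among the erasers, the CXXC domain demethylase Kdm2a had the widest Spin1 peak with 4774 bp at chr19:4394184-4398957 and an H3K4me3 peak of 6436 bp. Kdm2a and Kdm2b belong to neither the KDM1 nor the KDM5 family, and their activity on H3K4 was not examined. Without them the eraser medians were 2765 bp for Spin1 and 3390 bp for H3K4me3 (n = 5). Kdm5a, a JmjC demethylase of H3K4me3, followed with 3428 bp. Kdm5b, its paralog, had 2802 bp with a score of 2991.97, and X-linked Kdm5c had the narrowest of the class with 1987 bp, a score of 2686.76 and an H3K4me3 peak of 2940 bp. Both LSD demethylases lay below the class median of 2802 bp, Kdm1a with 2603 bp scored at 3100 and Kdm1b with 2765 bp scored at 2319.60.

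Kdm2b was the only gene with distant promoters that were both occupied. At its RefSeq Select start the Spin1 peak measured 2919 bp with a score of 2143.18 (chr5:122987526-122990444). At the start of its shorter transcripts, at chr5:122898785-122901198, the peak measured 2414 bp and reached 3100. H3K4me3 peaks of 4951 bp and 3230 bp lay at these promoters. The higher score belonged to the narrower Spin1 peak.

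The readers spanned the range from 1307 bp to 4877 bp in Spin1 width. The widest were Phf2, a PHD finger protein with a JmjC domain, with 4877 bp, and Ing1, an ING family PHD finger protein, with 4860 bp. Ing2 followed with 4313 bp, Spin1 with 4040 bp and Bptf, the PHD finger subunit of the NURF remodeler, with 3890 bp. The chromodomain remodeler Chd1 had 3758 bp and Phf13, a PHD finger protein, had 3454 bp. All of these were scored at 3100.

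The other 7 readers lay between 1307 and 2377 bp. Phf8, an X-linked relative of Phf2, had 2377 bp and Phf23, which has a PHD finger, had 2362 bp, followed by Ing5 with 2169 bp and Taf3, the PHD finger subunit of TFIID, with 2105 bp. Ing3 had 1970 bp and Ing4 had 1582 bp. The ING family was thus divided, with Ing1 and Ing2 at 3100 and above the protein-coding median of 2289 bp, and Ing3, Ing4 and Ing5 below it with scores of 1373.59, 1449.35 and 2092.33. For Ing5 this depended on the peak calling, since a second Spin1 peak at 3100 lay 175 bp away and both together would span 4622 bp. The Spindlin genes were divided as well, with 4040 bp for Spin1 and 1307 bp for X-linked Spin4. The median Spin1 peak of X-linked protein-coding genes measured 1537 bp.

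**Figure D3:**
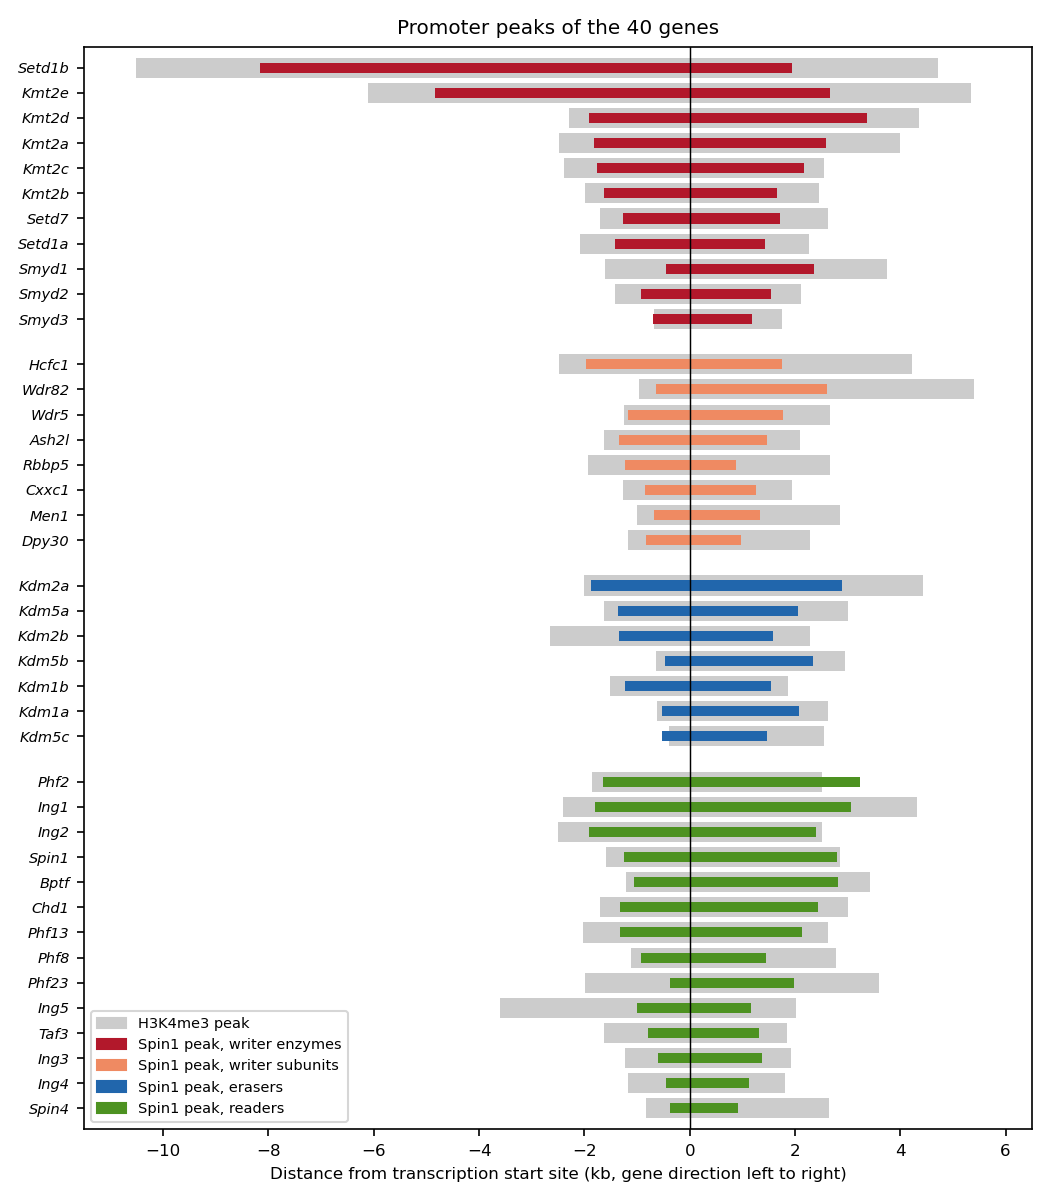
Promoter peaks of the 40 genes in kb from the TSS, drawn in the direction of transcription, with H3K4me3 in gray and Spin1 in the color of the class, sorted by Spin1 width within each class. Setd1b and Kmt2e extend farthest upstream, by 8163 bp and 4840 bp for Spin1, and Phf2 has a Spin1 peak that runs beyond its H3K4me3 peak.

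The Spin1 peaks lay mostly inside the H3K4me3 peaks and leaned into the gene. In 37 of 40 genes, or 92.5%, the Spin1 peak was fully covered by H3K4me3, against 92.3% of protein-coding genes with both promoter peaks. The exceptions were Smyd3, Kdm5c and Phf2, in which 98.4%, 97.7% and 85.2% of the Spin1 peak was covered. For Kdm5c this depended on the peak calling, since the uncovered part was the gap between H3K4me3 peaks of 641 bp and 2940 bp. Phf2 was the 1 gene with a wider Spin1 than H3K4me3 peak, 4877 bp against 4363 bp, a relation found in 1.08% of protein-coding genes with both promoter peaks.

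Spin1 peaks spanned the TSS in all 40 genes. Their center lay downstream of it in 36, against 80.7% of protein-coding genes. The median peak reached 1229 bp upstream and 1764 bp downstream, against 769 bp and 1401 bp for protein-coding genes. The downstream edge fell in intron 1 in 26 genes, in intron 2 in 6 and in intron 3 in 3. In Spin4, which has 1 exon, it fell in exon 1, and in Phf13, Cxxc1, Phf23 and Setd1b it fell in a later exon. The shares of protein-coding genes with a spanned TSS or with each edge position were not computed. The counts of both are therefore not shown to be particular to these genes.

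**Figure D4:**
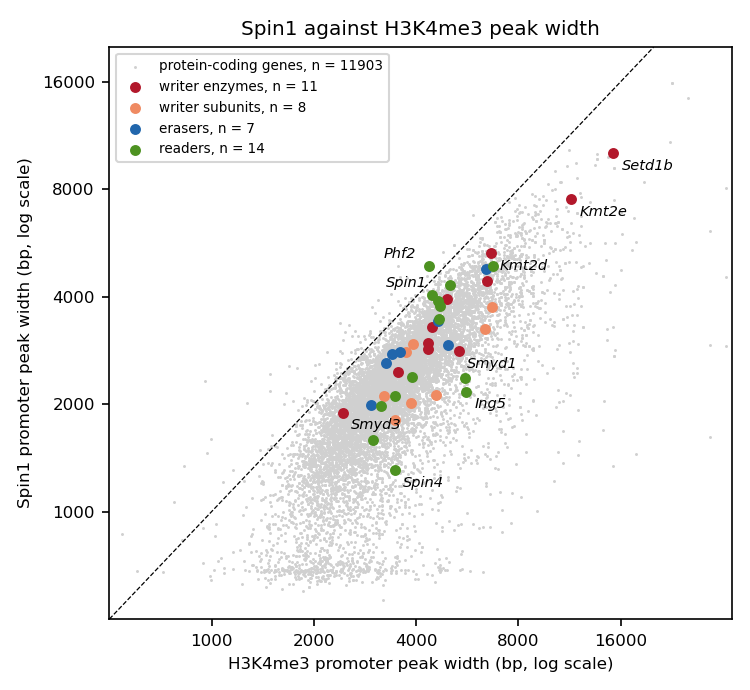
Spin1 against H3K4me3 promoter peak width in bp, both on log scales, for the 40 genes by class and for 11903 protein-coding genes with both peaks (gray). The dashed line marks equal widths. Phf2 lies above it, and Spin4 and Ing5 lie at the lower edge of the 40 genes with widths of 1307 and 2169 bp for Spin1.

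Spin1 and H3K4me3 widths were correlated across the 40 genes, with a Spearman rank correlation of 0.781 (n = 40), against 0.790 across 11903 protein-coding genes. Genes are not independent replicates, and both peak sets come from the same cells and share the input control. Spin4 and Ing5 had the narrowest Spin1 peak for their H3K4me3 peak, with 37.7% and 38.7% of its width. In Ing5, the H3K4me3 peak of 5610 bp ran on to the start of the coding gene Dtymk on the opposite strand 1897 bp away. A second Spin1 peak of 2278 bp, scored at 3100, lay at that start, 175 bp from the first one. For Spin4, no other Spin1 peak lay within 500 bp.

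By the share of Spin1 peaks scored at 3100, writer enzymes came first, as they did by median width. All 40 H3K4me3 peaks were at 3100, as were 89.5% of the H3K4me3 promoter peaks of protein-coding genes. For Spin1, 24 of 40 peaks were at 3100, against 48.5% of protein-coding genes with a Spin1 promoter peak. The count was 9 of 11 in writer enzymes, 4 of 8 in subunits, 3 of 7 in erasers and 8 of 14 in readers. These counts depended on the peak taken for Kdm2b, whose other promoter peak was at 3100. With the highest-scoring promoter peak of each gene, the share was 57.1% in erasers, equal to readers, and 62.5% in the 40 genes. The 5 lowest scores were those of Spin4 with 533.48, Smyd3 with 826.76, Phf8 with 1204.15, Ing3 with 1373.59 and Ing4 with 1449.35. When only the 50% of peaks with the highest scores were used, Smyd3, Spin4 and Phf8 had no Spin1 peak left, and 37 genes remained.

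**Figure D5:**
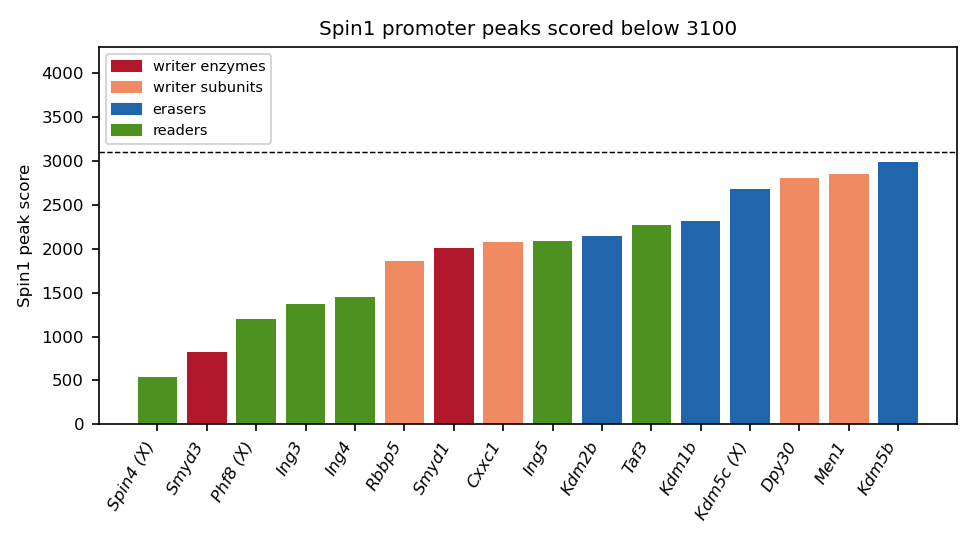
Spin1 scores of the 16 genes whose peak with the most promoter bases was below 3100 (dashed line). Genes run from lowest to highest, colored by class and marked (X) on the X chromosome. Kdm2b is shown with the peak at its RefSeq Select start, and its other promoter peak was at 3100. Spin4 is lowest with 533.48 and Kdm5b highest with 2991.97.

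Of the 5 lowest scores, 2 belonged to genes on the X chromosome. Of the 4 X-linked genes, Spin4, Phf8 and Kdm5c were below 3100 and Hcfc1 was at 3100. Their median Spin1 score was 1945.46, against 3100 for the 36 autosomal genes. A difference in the same direction was present in protein-coding genes in general, with a median Spin1 score of 803.915 for 348 X-linked genes and 3077.94 for 11559 autosomal genes. At 3100 were 8.05% and 49.8% of them. For H3K4me3 the shares were 83.9% and 89.7%. The part of X linkage in the scores of these 4 genes was not tested.

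Spin1 peaks of few of the genes were shared with another coding gene. The peak covered the curated start of Tpmt in Kdm1b and of Ccdc77 in Kdm5a, 2 of 40, against 17.6% of protein-coding genes with a Spin1 promoter peak. Both are on the opposite strand, 161 bp and 69 bp from the start of the eraser gene. Predicted starts of other coding genes lay in the peaks of Setd1b, Kdm2a and Kdm5b as well. Curated starts of noncoding genes lay in the Spin1 peak of 8 genes, or 20%, all on the opposite strand, against 6.76% of protein-coding genes with a Spin1 promoter peak. These genes were Kmt2b, Kmt2c, Kmt2e, Setd7, Rbbp5, Kdm2b, Ing2 and Spin1, the last with the lncRNA gene 9430083A17Rik 153 bp away. Peaks carry no strand, so that the share of each start in such a peak cannot be told apart.

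Outside curated promoters, peaks were found in the bodies of these genes in shares near those of occupied protein-coding genes. There were 5 Spin1 peaks in 5 genes (12.5%) and 17 H3K4me3 peaks in 12 genes (30%), each centered in an intron. Among protein-coding genes with both promoter peaks, 13.4% and 28.5% had such peaks, with a median gene length of 24698 bp against 41955.5 bp in the 40 genes. The Spin1 peaks in Kmt2d and Kdm2b lay 49 bp and 100 bp from the promoter peak. Of the Spin1 peaks, 4 had scores below 300, the highest 144.71, and 1 reached 3100. That peak, of 2243 bp, lay in an intron of Kdm2a at chr19:4332150-4334392, 63806 bp from the TSS, under an H3K4me3 peak of 4313 bp that was also at 3100. A predicted RefSeq start of Kdm2a, at chr19:4334139, and a GENCODE start lay in it, which the curated transcripts do not include.

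The strong H3K4me3 peaks inside the genes did not all carry Spin1. Of the 17, 4 were at 3100 and the remaining 13 were below 300. In Kdm2b a peak of 2437 bp at chr5:122950558-122952994 also lay over predicted starts, 37323 bp from the TSS, but no Spin1 peak was listed there. Setd1b had a peak of 3303 bp without Spin1, 8245 bp from the TSS. In Setd7 a peak of 2189 bp at 3100 overlapped a Spin1 peak of 900 bp with a score of 118.53. Smyd3 had the only Spin1 peak in a gene body without H3K4me3, 663 bp wide, 469823 bp from the TSS and with a score of 87.95.

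Other genes of H3K4 methylation, outside the 40, were mostly occupied too. Of 42 such genes, 36 had a Spin1 promoter peak and 38 had H3K4me3, against 56.7% and 68% of protein-coding genes. Spin1 was present at 12 of 13 further writers and associated subunits, 9 of 9 further erasers and their partners, and 15 of 20 further readers. Those without Spin1 were Ncoa6, Spin2c, Spin2d, Rag2, Aire and Dnmt3l. Rag2 acts in lymphocyte receptor rearrangement, Aire in thymic tolerance and Dnmt3l in germ cell DNA methylation.

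For Ncoa6, a subunit of the complexes of Kmt2c and Kmt2d, the call turned on the annotation. Its curated start at chr2:155440783 had neither peak. Predicted RefSeq starts near chr2:155473911 lay in a Spin1 peak of 2763 bp and an H3K4me3 peak of 3103 bp, both at 3100. Rag2 also had peaks at a predicted start, 1526 bp with a score of 874.05 for Spin1. Spin2c had an H3K4me3 peak of 1833 bp at 3100 without Spin1, and Spin2d had neither. Peaks were also present at Prdm9, known as a meiotic methyltransferase, with 1968 bp and a score of 1809.88 for Spin1. Zcwpw1, a reader with a meiotic role, had 3786 bp at 3100, and Y-linked Kdm5d had 1507 bp and 1020.41. Whether the peaks at Rag2, Prdm9, Zcwpw1 and Kdm5d also cover starts of other genes was not examined.

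The cell type was checked by promoter peaks at marker genes. Myoblast markers, Myod1, Myf5 and Pax7 among them, had both peaks in 8 of 8. Fibroblast markers had Spin1 in 2 of 4 and H3K4me3 in 4 of 4, with both peaks at Pdgfra and Col1a1. Endothelial, neural and macrophage markers had Spin1 in 0 of 4 each, and H3K4me3 in 3, 3 and 0 of 4. Among all protein-coding genes, 56.7% had Spin1 and 68% had H3K4me3 at a promoter. H3K4me3 peaks therefore did not set the endothelial and neural markers apart from other genes. The part of other cells in the peaks of the 40 genes was not tested. In all, the lists held 17106 Spin1 and 30763 H3K4me3 peaks, of which 30.9% and 45.2% were at 3100 or above.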

How the data were processed

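Immunoprecipitated DNA of primary myoblasts was sequenced, with 1 library for Spin1 and 1 for H3K4me3. Reads were aligned by the authors to mm10 (GRCm38) with bowtie 2, and peaks were called over input with MACS 1.4.2 and kept up to a false discovery rate of 1%. The authors deposited the coordinates of each peak and its score (10 × −log10 p). Scores and widths grow with sequencing depth, which is unknown, and weak sites of a shallow library would be missed.

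Peaks were compared with 45756 curated transcripts of RefSeq annotation release 108.20200622, the build of the files, with coordinates counted from 1. A promoter was TSS±1 kb, and an overlap of 1 bp made a gene occupied. Each gene was represented by the peak with the most bases in its promoters. Distances, CpG content and motifs used the RefSeq Select start, or the longest transcript. Sequences came from the RefSeq genome, and 48 promoters of 31 of the genes in a RefSeq promoter table were identical to them. GENCODE vM21 starts were read only at peaks in gene bodies. Shares have Wilson intervals and medians binomial intervals. The functions were tested on simulated data. Python 3.11.15, pandas 2.3.3, NumPy 2.4.6, SciPy 1.17.1, pysam 0.24.0, samtools 1.23.1 and matplotlib 3.10.9 were used.

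The genes, lists and comparisons were chosen with earlier results of these data known. Genes named in the text were Spin1, genes or starts without a peak, the widest and narrowest peaks of each class, the 5 lowest Spin1 scores, genes with distant promoters, shared peaks or gene body peaks, genes lost under an alternative, and the others by paralog group. Smyd1 was singled out for its CpG content, Rag2, Prdm9, Zcwpw1 and Kdm5d among further genes, and the X-linked genes as a group, after their values were seen. Alternatives were other windows, transcripts, score limits, overlap rules, peak choices and class assignments. Input and RNA-seq samples (22) were not analysed here.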

Additional observations from a re-analysis of the deposited data

How the results depend on the processing

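Each of the 40 genes kept both peaks with promoters of TSS±0.5 kb, TSS±2 kb or 1 kb upstream to 0.1 kb downstream, with 1 TSS per gene, with predicted transcripts, with a score of at least 100 and with an overlap of 200 bp. With the 50% of peaks of the highest score, 37 kept Spin1 and 40 kept H3K4me3. With the peak center inside the window, 38 kept Spin1 and 33 kept H3K4me3, since the other centers lay more than 1 kb from the start. These included wide peaks such as those of Setd1b, but also the H3K4me3 peak of Kdm5b with 3595 bp. Under the last 2 settings, 42.9% and 45.2% of protein-coding genes had both peaks. Of 259 values under an alternative, 246 stayed within 1.5 times the count or within the interval. This count does not measure stability, because many alternatives left a class untouched and its value could not change. For writer subunits and erasers the interval of the median width was also the full range of the class. The share of writer enzymes with a Spin1 score of 3100 was 81.8%, and 100% without Smyd1, Smyd2, Smyd3 and Setd7. Several alternatives returned the same class medians as the main setting, among them the widest peak, 1 TSS per gene and a score of at least 100. Counts over the alternatives are therefore not counts of separate checks. Writer enzymes had the widest median H3K4me3 peak under 13 of 13 alternatives and the widest Spin1 peak under 10 of 13. The exceptions were Kmt2e counted as a reader and 2 alternatives added after the data were seen. These were joining peaks less than 500 bp apart and leaving out the X-linked genes, and the readers came first with 3606 bp in each. No paired analysis was possible because there was 1 library per antibody. Depth is unknown, so that its effect on narrow and weak peaks was not tested.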
